A study of Mus musculus with 8 samples.

Results

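Replication-dependent histone genes encode the linker histone H1 and the 4 core histones H2A, H2B, H3 and H4, and lie in many near-identical copies in a few clusters of the genome. Their probe sets were chosen by gene name. A probe set was kept when every gene listed for it carried an older name that begins with Hist1h, Hist2h, Hist3h or Hist4h. The probe annotation lists current symbols (H2ac15 for Hist1h2ak), 0 of which begin that way, so the older names were read from the RefSeq gene table through Entrez identifiers. This gave 72 probe sets of 23099 with at least 1 gene symbol and of 35556 in all. They stood for 68 of the 70 genes with such a name, and of 20556 gene symbols on the array. By class, 5 were H1, 20 H2A, 19 H2B, 13 H3 and 13 H4, and 2 listed genes of more than 1 class. In 33 probe sets 1 symbol was listed, and in 39 several were. Probes that match several copies cannot tell them apart, so a probe set with several symbols is named here by its number and class. The family was singled out because of its difference between tolerant and rejecting T cell samples on these arrays, so its differences are a description and carry no test.

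The tolerant group was CD3+ T cells from grafts in hosts tolerised by injections of anti-CD4, anti-CD8 and, as the study's text writes it, CD40L. The rejecting group was CD3+ T cells from grafts in untreated hosts. All hosts were wild-type CD1 mice carrying tissues derived from human embryonic stem cells, and cells were isolated at day 30. Each group had 4 arrays of total RNA, numbered 1 to 4, and whether these were separate mice is not stated in the labels. Differences below are tolerant minus rejecting on the log2 scale of the deposited RMA values.

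Replication-dependent histone genes are transcribed mainly in S phase, when new DNA is wrapped into nucleosomes. H2A, H2B, H3 and H4 form the nucleosome core, and H1 binds the DNA between cores. The mRNAs of these genes end in a stem-loop in place of a poly(A) tail. The stem-loop binding protein Slbp holds that end, and the mRNAs are degraded when DNA synthesis stops. In T cells they are best known as a feature of proliferating cells.

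The arrays numbered 3 and 4 and those numbered 1 and 2 stood apart in both groups and are given apart. A background line was set on each array from 1182 olfactory and vomeronasal receptor probe sets, at their 99th percentile. Above it lay 17.3% and 17.2% of annotated probe sets on tolerant arrays 3 and 4, against 15.3% and 11.1% on rejecting arrays 3 and 4. On arrays 1 and 2 the shares were 2.86% and 2.65% in tolerant and 5.21% and 5.86% in rejecting samples. The T cell label was checked against 12 markers, of which 10 had a single-symbol probe set. Cd3e, which encodes the epsilon chain of CD3, lay above the line on 5 of 8 arrays, as did Cd5 and Thy1. Cd3g lay above it on 2, Cd2, Zap70 and Cd6 on 1 each, and Cd3d, Cd247 and Cd28 on 0.

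Promoters from RefSeq (GRCm38.p6) were found for 62 of the 68 genes, as 63 windows from 250 bases before the start to 50 after it. For each class the 120 bases before the start are printed for the single-symbol gene with the lowest difference on arrays 3 and 4, and then for a divergent pair of testis genes. Capitals mark matches on either strand to the TATA box TATAAA, the CCAAT box, the octamer ATTTGCAT and the H1 box AAACACA.
H1f5 (chr13:21780626-21780745, minus strand): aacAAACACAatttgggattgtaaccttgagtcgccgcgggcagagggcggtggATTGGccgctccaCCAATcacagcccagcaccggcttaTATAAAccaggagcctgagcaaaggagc
H2ac21 (chr3:96219765-96219884, plus strand): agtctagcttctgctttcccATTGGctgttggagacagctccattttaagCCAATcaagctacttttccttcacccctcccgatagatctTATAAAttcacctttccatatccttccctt
H2bc3 (chr13:23746614-23746733, plus strand): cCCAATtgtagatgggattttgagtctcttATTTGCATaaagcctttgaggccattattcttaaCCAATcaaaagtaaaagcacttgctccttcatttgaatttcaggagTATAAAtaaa
H3c4 (chr13:23575643-23575762, plus strand): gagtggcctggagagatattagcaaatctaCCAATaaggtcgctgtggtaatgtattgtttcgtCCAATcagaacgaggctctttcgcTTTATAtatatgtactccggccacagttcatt
H4c6 (chr13:23551669-23551788, minus strand): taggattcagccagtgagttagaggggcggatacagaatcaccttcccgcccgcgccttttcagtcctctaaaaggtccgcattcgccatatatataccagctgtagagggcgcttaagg
H2ac1 (chr13:23934317-23934436, plus strand): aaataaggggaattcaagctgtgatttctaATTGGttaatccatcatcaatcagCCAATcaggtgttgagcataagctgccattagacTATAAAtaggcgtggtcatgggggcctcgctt
H2bc1 (chr13:23934157-23934276, minus strand): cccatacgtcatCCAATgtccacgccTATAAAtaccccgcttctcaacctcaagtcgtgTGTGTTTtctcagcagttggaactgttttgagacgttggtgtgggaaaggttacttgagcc

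Promoter letters differed by class in the full windows. CCAAT was present in 54 of 63 windows (85.7%), against 37.4% of all 32851 promoters of that length in the table. All 6 H1, 18 H2A, 17 H2B and 10 H3 windows held it, and 3 of 12 H4 windows did. TATAAA was present in 55.6% of histone windows, against 13.6% of all promoters. The octamer was found in 7 of 18 H2A and 7 of 17 H2B windows and in 0 of the H1, H3 and H4 windows, and 1.74% of all promoters held it. AAACACA was in 5 of 6 H1 windows (83.3%), against 7.18% of all promoters. Each motif was counted on its own, whatever it overlapped. In 10 pairs an H2A and an H2B gene lie back to back with overlapping windows, as H2ac1 and H2bc1 do, so their windows share letters. A match is a description of the letters and not a site of binding.

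On the arrays numbered 3 and 4, histone probe sets were lower in tolerant than in rejecting samples, by a median of 1.53 on the log2 scale. Their median level was 3.25 and 3.83 on tolerant arrays 3 and 4, against 4.95 and 5.39 on rejecting arrays 3 and 4. In 66 of 72 the tolerant mean was lower, as in 52.6% of all probe sets. In 54 the tolerant values lay below the rejecting values with no overlap, against 20.6% of all probe sets, and in 3 they lay above, against 18.9%. The difference exceeded the larger gap between arrays of 1 group, with tolerant lower, in 50 of the 72 and in 13.5% of all probe sets. The median over all 23099 probe sets was -0.01. Of the 20 probe sets with the lowest differences, 19 were histones, with 13 distinct combinations of symbols, and of the lowest 50, 40 were. Among the 100 with the highest differences 0 were histones. In these bulk samples fewer cells that make histone mRNA and less of it per cell cannot be told apart.

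**Figure D1:**
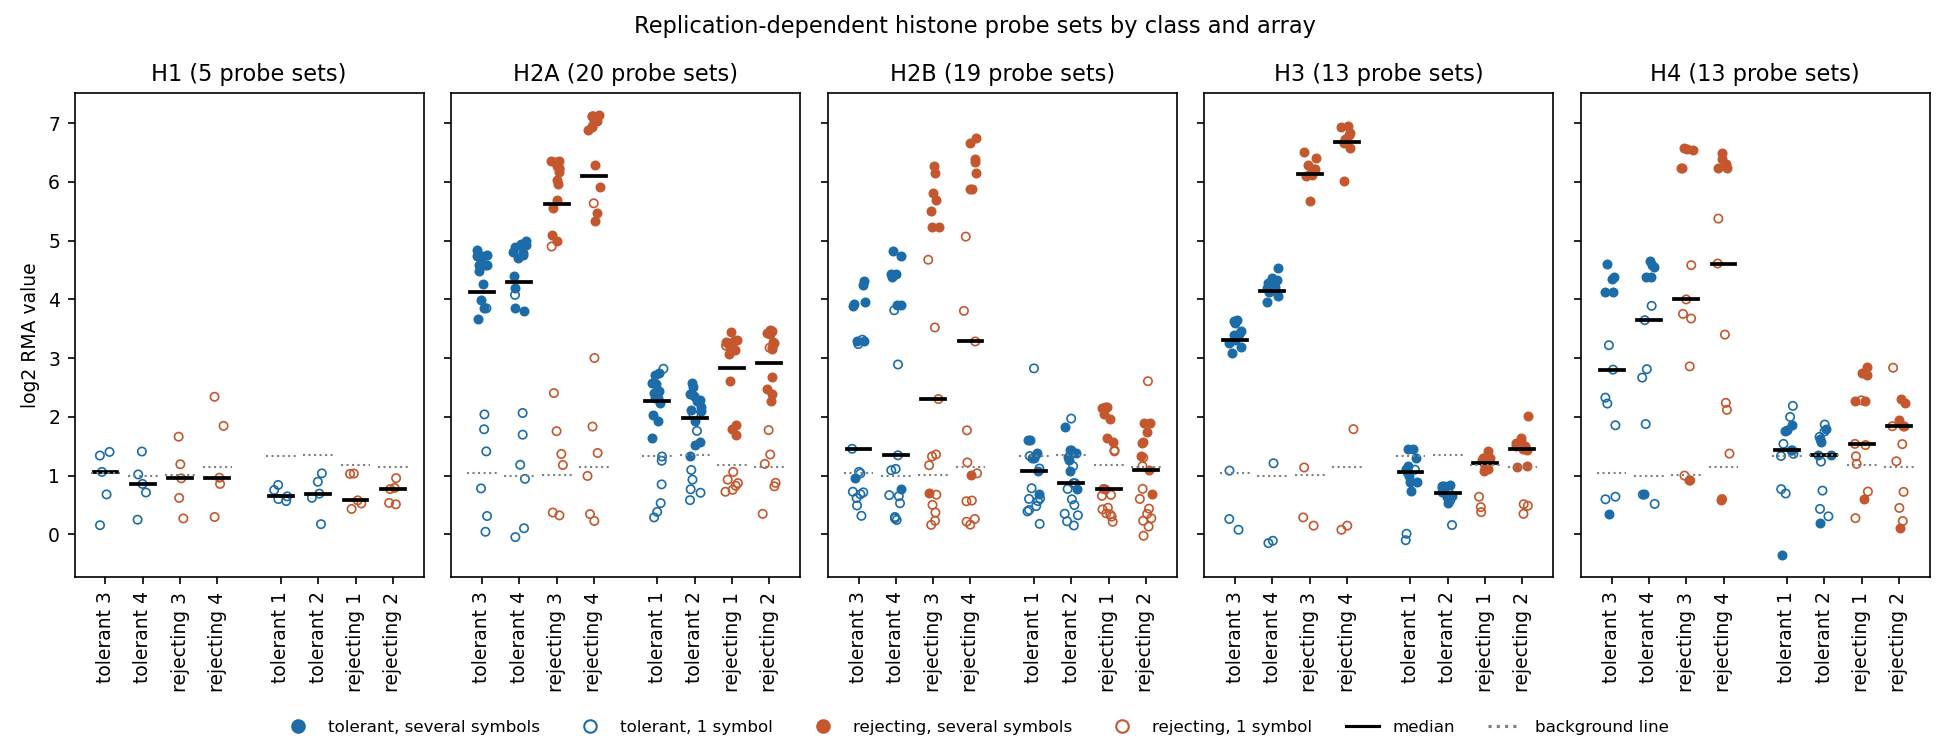
Log2 RMA value (vertical axis) of each histone probe set on each array, in a panel for each core and linker class, with arrays 3 and 4 on the left of each panel and arrays 1 and 2 on the right. Filled circles list several symbols, open circles 1, black bars are medians over the class and dotted lines the background line of the array. Filled circles of H3 lie between 3.09 and 4.53 on tolerant arrays 3 and 4 and between 5.68 and 6.96 on rejecting arrays 3 and 4.

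H3, which with H4 forms the central tetramer of the nucleosome, had the lowest class median on arrays 3 and 4, at -2.62. All 10 of its several-symbol probe sets had tolerant values below rejecting values, with differences between -2.79 and -2.32. Probe set 10494405, the brightest of them over the 8 arrays, lists H3c13, H3c2, H3c15 and H3c14. It read 3.60 and 4.53 on tolerant arrays 3 and 4, against 6.50 and 6.94 on rejecting arrays 3 and 4, a difference of -2.65 (standard error 0.33). Both tolerant arrays were low, and the gap between groups was wider than the gap within either. The 3 H3 genes with a probe set of their own differed little. H3c4 read 1.09 and 1.21 on tolerant arrays 3 and 4, against 1.14 and 1.79 on rejecting arrays 3 and 4, and the groups overlapped. H3c7 and H3c15 lay above the background line on 0 arrays, with differences of -0.09 and -0.20.

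H4, the partner of H3 in the tetramer, had a median difference of -0.96 over 13 probe sets, all 13 of them lower in tolerant samples. Probe set 10404067 lists H4c2, H4c1, H4c18, H4c6 and H4c3. It read 4.60 and 4.66 on tolerant arrays 3 and 4, against 6.55 and 6.39 on rejecting arrays 3 and 4, and its difference was -1.84 (standard error 0.11). Arrays of the same group lay close together there. Across the bright several-symbol H4 probe sets, those with a mean over the 8 arrays of at least 2, differences ranged from -2.08 to -1.84 and the widest gap between arrays of a group was 0.26. In the limma test over 23099 probe sets, adjusted p was under 0.05 for 5 of 72 histones and for 0.0909% of all probe sets (0.026% as lower). All 5 were H4 probe sets with several symbols, 10404067 and, named after their values were seen, 10408243, 10408074, 10403957 and 10408092. The last 2 hold identical values on all 8 arrays. This contrast chose the family, so nothing is read from the counts in this paragraph. At an unadjusted p under 0.05 there were 48 histones, against 7.25% of all probe sets. With the replicate number as a block 25 histones and 0.221% of all probe sets were called. On 4 arrays that fit leaves little from which to estimate scatter. Within arrays 3 and 4 the deviations of same-numbered arrays correlated at 0.0266. Leaving out any 1 of the 4 arrays leaves 1 array in a group, so that fit is not read here.

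Single H4 genes differed by unequal amounts. H4c6 read 1.86 and 3.65 on tolerant arrays 3 and 4, against 4.58 and 5.38 on rejecting arrays 3 and 4, a difference of -2.23 (standard error 0.61). Tolerant arrays 3 and 4 differed from each other by 1.79, the widest gap between arrays of a group among the members there. H4c4 read 2.81 and 3.89 in tolerant samples, against 4.00 and 4.61 in rejecting samples, a difference of -0.96. H4c14, in the Hist2 cluster, read 3.22 and 2.81 in tolerant samples, against 3.75 and 3.40 in rejecting samples, a difference of -0.56. In these 3 genes the groups did not overlap. H4c9 was below the line on all 8 arrays, with a difference of -0.12.

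H2A forms dimers with H2B that flank the H3-H4 tetramer. Its median difference on arrays 3 and 4 was -1.66, with 19 of 20 probe sets lower in tolerant samples. Probe set 10408085, the brightest of the several-symbol ones, lists 9 H2A genes. It read 4.84 and 4.89 on tolerant arrays 3 and 4, against 6.27 and 7.03 on rejecting arrays 3 and 4, a difference of -1.78 (standard error 0.26). Rejecting array 4 was the highest and the groups were well apart. The 9 several-symbol probe sets of the Hist1 cluster differed by -1.93 to -1.78, and the 4 of the Hist2 cluster by -1.66 to -1.31. H2ac21, a Hist2 gene with its own probe set, read 3.85 and 4.08 in tolerant samples, against 4.90 and 5.64 in rejecting samples, a difference of -1.31. H2ac15 read 1.79 and 2.07 in tolerant samples, against 2.41 and 3.00 in rejecting samples, a difference of -0.78. Both genes were lower on each tolerant array than on either rejecting array. H2ac1, a testis H2A, read 2.04 and 1.70 on tolerant arrays 3 and 4 and 1.76 and 1.39 on rejecting arrays 3 and 4, overlapping with a difference of 0.30.

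H2B had a median difference of -0.62 over 19 probe sets, 15 of them lower in tolerant samples. The class split by the number of symbols listed. Its 7 bright several-symbol probe sets differed by -1.95 to -1.66, and the 11 with 1 symbol had a median of -0.03. Probe set 10408070, which lists 11 genes, read 4.25 and 4.82 on tolerant arrays 3 and 4, against 6.15 and 6.75 on rejecting arrays 3 and 4, a difference of -1.91 (standard error 0.27). One of its listed symbols, H4bc24, is the current name of Hist1h2br, an H2B gene. H2bc14 read 3.32 and 3.82 in tolerant samples, against 4.68 and 5.07 in rejecting samples, a difference of -1.31. H2bc3 read 1.46 and 1.09 in tolerant samples, against 2.31 and 3.29 in rejecting samples, a difference of -1.52 (standard error 0.34). H2bc9 read 3.24 and 2.89 in tolerant samples, against 3.52 and 3.81 in rejecting samples, a difference of -0.60. In these 3 genes and in probe set 10408070 the groups did not overlap. The testis gene H2bc1 read 0.68 and 0.65 in tolerant samples, below the line, against 1.36 and 1.23 in rejecting samples. H2bc4 (10404053) lay above the line on 0 arrays, with a difference of 0.30.

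H1, the linker class, had 5 probe sets, each with 1 symbol, and a median difference of -0.21. H1f5 read 1.07 and 0.86 on tolerant arrays 3 and 4, against 1.20 and 2.34 on rejecting arrays 3 and 4, a difference of -0.81 (standard error 0.37). Rejecting array 4 alone stood high. H1f1 read 1.34 and 1.41 in tolerant samples, against 1.66 and 1.85 in rejecting samples, a difference of -0.38. H1f2 went the other way, at 1.41 and 1.02 in tolerant samples, against 0.62 and 0.97 in rejecting samples. H1f3 and the testis gene H1f6 lay above the line on 0 arrays, with differences of -0.08 and -0.21. Of the probe sets with genes of more than 1 class, 10494395, which lists H2A and H3 genes, read 3.33 and 3.70 in tolerant samples, against 5.05 and 5.40 in rejecting samples, a difference of -1.71. The other, 10408212 (an H2B and an H1 gene), had a difference of -0.29.

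The size of the difference went with brightness and the number of symbols, which are linked. Brightness is the mean over the 8 arrays and takes in the values behind the difference. A dim member therefore cannot show a large difference, and the split by brightness is a description only. The 39 several-symbol probe sets had a median of -1.92 on arrays 3 and 4, with 25 distinct combinations of symbols, and the 33 single-symbol ones a median of -0.30. Among probe sets with a mean of at least 2 over the 8 arrays, the 36 with several symbols had a median of -1.92 and the 7 with 1 symbol one of -0.96. All 43 were lower in tolerant samples. The 10 with a mean from 1 to under 2 had a median of -0.34, and the 19 under 1 one of -0.12. Most of those 19 lay below the background line, so that their small differences do not show equal levels. Counting each combination of symbols once, an alternative added after the data were seen, gave a median of -0.78 over the family. Among several-symbol probe sets, the H3 differences, at most -2.32, did not overlap with those of the other classes, of which the lowest was -2.08. With dim probe sets left out the class medians of H4 and H2A were -1.89 and -1.72, in the opposite order to that over all members. That filter also takes in the values on arrays 3 and 4.

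**Figure D2:**
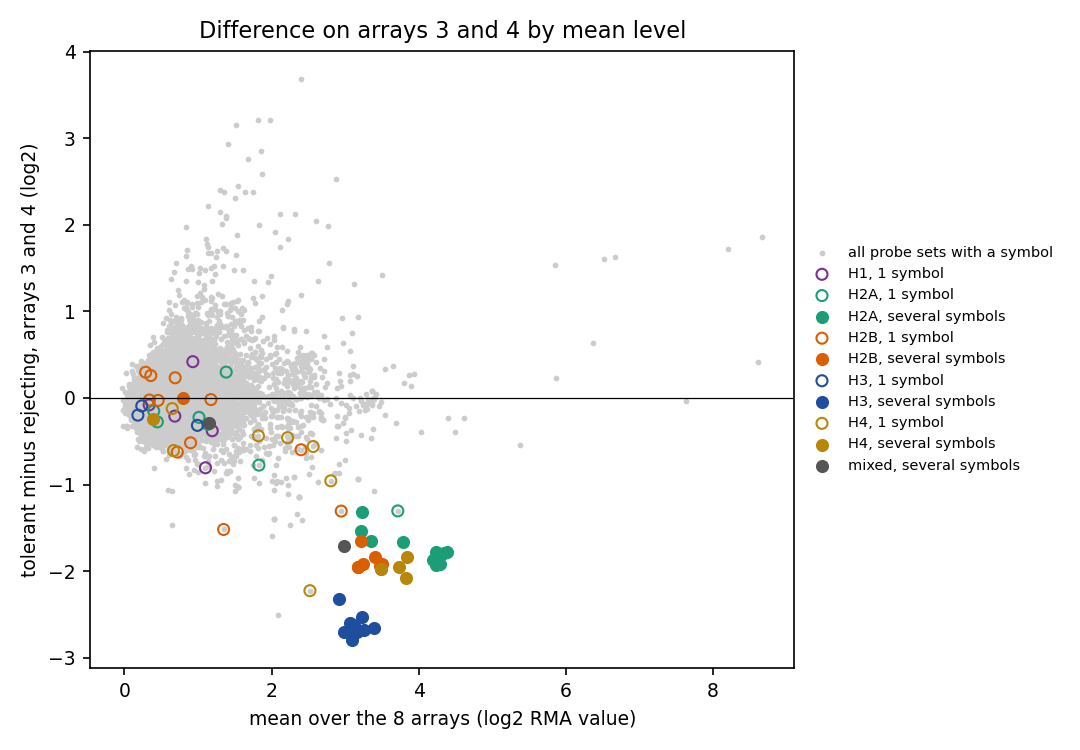
Tolerant minus rejecting difference on arrays 3 and 4 (vertical axis, log2) against the mean over the 8 arrays (horizontal axis, log2 RMA value). Grey points are all 23099 probe sets with a symbol, coloured filled circles are histones with several symbols and open circles those with 1. The 43 histones with a mean of at least 2 all lie below 0, and the 10 H3 probe sets with several symbols lie lowest. The mean takes in the values behind the difference.

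On the arrays numbered 1 and 2 the same family had a median difference of -0.33. Its median level was 1.30 and 1.02 on tolerant arrays 1 and 2, against 1.31 and 1.48 on rejecting arrays 1 and 2. Of the 72 members 57 were lower in tolerant samples, as were 50.8% of all probe sets, and 36 had tolerant values below rejecting ones with no overlap, against 17.2%. Median differences were -0.64 for H2A, -0.48 for H3, -0.46 for H4, -0.12 for H2B and -0.11 for H1. Limma called 0 histones and 0.0% of all probe sets, and 29 histones had an unadjusted p under 0.05, against 5.3%. H2A probe set 10408085 read 2.72 and 2.58 in tolerant samples, against 3.27 and 3.43 in rejecting samples. H3 probe set 10494405 read 1.45 and 0.83 in tolerant samples, against 1.31 and 2.01 in rejecting samples. It was 1 of 2 several-symbol H3 probe sets whose groups overlapped there, and in the other 8 of the 10 tolerant values lay below rejecting ones. On arrays 1 and 2 tolerant samples had 32 and 27 members above the line, against 41 and 45 in rejecting samples. Over all annotated probe sets the shares leaned the same way, 2.86% and 2.65% in tolerant and 5.21% and 5.86% in rejecting samples. The line itself was lower on rejecting arrays 1 and 2, at 1.18 and 1.15, against 1.33 and 1.35 on the tolerant ones.

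Order held across both sets for some members and turned for others. In 33 the tolerant values lay below the rejecting ones in each set, as in 3.39% of all probe sets. In 3, H2ac15 and the testis genes H1f6 and H2bc1, they lay below on arrays 3 and 4 and above on arrays 1 and 2, as in 3.69% of all probe sets, so 3 of 72 was near the background. H2ac15 read 1.33 and 1.76 on tolerant arrays 1 and 2, against 1.06 and 1.20 on rejecting arrays 1 and 2. The family stood higher on arrays 3 and 4 than on arrays 1 and 2 by a median of 1.94 in tolerant and 3.19 in rejecting samples. For bright several-symbol H3 probe sets these steps were 2.95 in tolerant and 5.11 in rejecting samples, and for the H2A ones they were 2.22 in tolerant and 3.34 in rejecting samples. Over all probe sets the median steps were 0.016 and 0.019. Most of these probe sets lay below the background line on each array, so that median does not describe brighter genes. The highest value of any probe set with a symbol was 6.76 to 7.58 on arrays 1 and 2 and 10.1 to 11.2 on arrays 3 and 4. With the 8 arrays quantile normalized, the family's steps were 0.83 in tolerant and 1.02 in rejecting samples. The test of the difference between the sets called 0 histones in limma, against 0.0649% of all probe sets. At an unadjusted p under 0.05 it had 42 histones, against 7.19% of all probe sets. Arrays 3 and 4 enter this test too, so nothing is read from its counts.

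**Figure D3:**
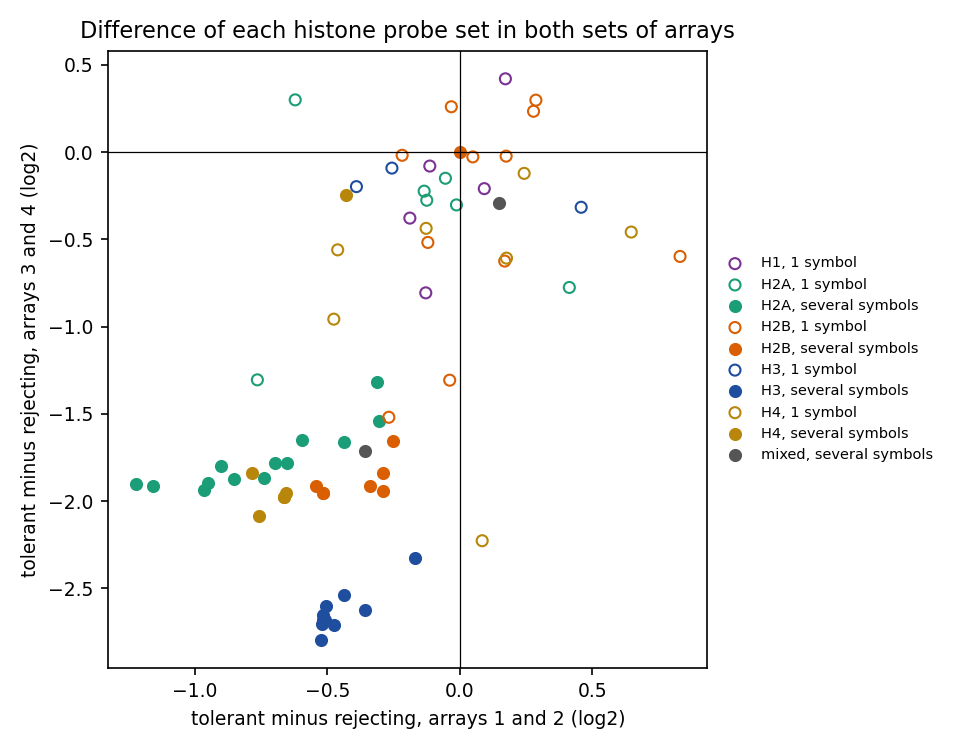
Tolerant minus rejecting difference of each histone probe set on arrays 3 and 4 (vertical axis, log2) against that on arrays 1 and 2 (horizontal axis, log2), with filled circles for several symbols and open circles for 1. The H3 probe sets with several symbols lie between -2.79 and -2.32 on the vertical axis and between -0.52 and -0.17 on the horizontal one.

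Over all 8 arrays the median difference was -0.94, with 61 of 72 lower in tolerant samples, against 50.5% of all probe sets. H3 probe set 10494405 averaged 2.60 ± 1.75 in tolerant and 4.19 ± 2.94 in rejecting samples (SD, n = 4 each). These SDs take in the step between arrays 1 and 2 and arrays 3 and 4, which both groups share. In 0 of the 72 did the groups stay apart, against 1.17% of all probe sets with tolerant below, a count that does not set that step aside. Limma called 0 histones and 0.0% of all probe sets. At an unadjusted p under 0.05 there were 2 histones, against 2.94%. With the replicate number as a block 47 histones had such a p, against 5.29% of all probe sets, and when the block was the set (1 and 2, or 3 and 4) 42 did, against 5.71%. Limma called 0 histones with either block. These fits take in arrays 3 and 4, whose contrast chose the family, so nothing is read from the counts. Many members also list the same genes.

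Many genes that work with these histones lay too low to compare. Above the background line on 0 arrays were 2 of 11 measured variants, 9 of 15 mRNA processing genes, 8 of 11 chaperones, 17 of 20 S phase genes and 10 of 12 G2 and mitosis genes. In those genes a small difference does not show equal levels. On arrays 3 and 4, 52.6% of all probe sets were lower in tolerant samples and 0.0909% passed the limma test. Of the 11 replication-independent histone variants of 12 listed that were measured, which are made outside S phase too, 5 were lower in tolerant samples and 0 passed the limma test, with a median of 0.02. H2az1 (H2afz), a variant placed at promoters, read 1.73 and 1.75 on tolerant arrays 3 and 4, against 1.72 and 1.98 on rejecting arrays 3 and 4. H2ax, which is phosphorylated at DNA breaks, read 0.91 and 1.11 in tolerant samples, against 1.63 and 1.17 in rejecting samples. H3f3a and H3f3b, which encode H3.3, had differences of 0.16 and 0.29. The largest in this list were Cenpa, the centromeric H3, at -0.47 and Macroh2a2, above the line on 0 arrays, at 0.44. H1f0 had no single-symbol probe set.

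Genes of histone mRNA processing numbered 15 of 16 measured, with a median difference of -0.06, 8 lower and 0 passing. Slbp read 0.84 and 0.88 on tolerant arrays 3 and 4, against 0.92 and 0.95 on rejecting arrays 3 and 4, and lay above the line on 0 of 8 arrays. Npat, the coactivator of histone gene transcription, was also above it on 0, with a difference of -0.15. Lsm10, a subunit of the U7 particle that cuts histone mRNA, and Upf1, a helicase that takes part in histone mRNA decay, had 0.45 and 0.42. Histone chaperones and enzymes that acetylate new histones, 11 of 13 measured, had a median of 0.02, 5 lower and 0 passing. Chaf1a, of the assembly factor CAF-1, and Atrx, which deposits H3.3, had 0.38 and 0.33, and Atrx lay above the line on 0 arrays.

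S phase genes, 20 of 25 measured, had a median of -0.10 on these arrays, with 14 lower in tolerant samples and 0 passing. In 7 of these 20 genes tolerant values lay below rejecting ones with no overlap, and in 1 above. Over all probe sets those shares were 20.6% and 18.9%. Pcna, the clamp of the replication fork, read 0.80 and 1.20 in tolerant samples, against 0.66 and 1.65 in rejecting samples. Rrm2, a subunit of ribonucleotide reductase, had a difference of -0.15, and Mcm4 and Tk1 had the largest, -0.28 and 0.28. Rrm2 and Mcm4 lay above the line on 0 arrays. G2 and mitosis genes, 12 of 13 measured, had a median of -0.07, 8 lower and 0 passing. In 6 of these 12 genes tolerant values lay below rejecting ones with no overlap, and in 1 above. Mki67 and Top2a, both above the line on 0 arrays, had 0.07 and -0.02. Cdc20 and Bub1 had the largest differences, -0.28 and -0.24, and Bub1 lay above the line on 0 arrays.

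**Figure D4:**
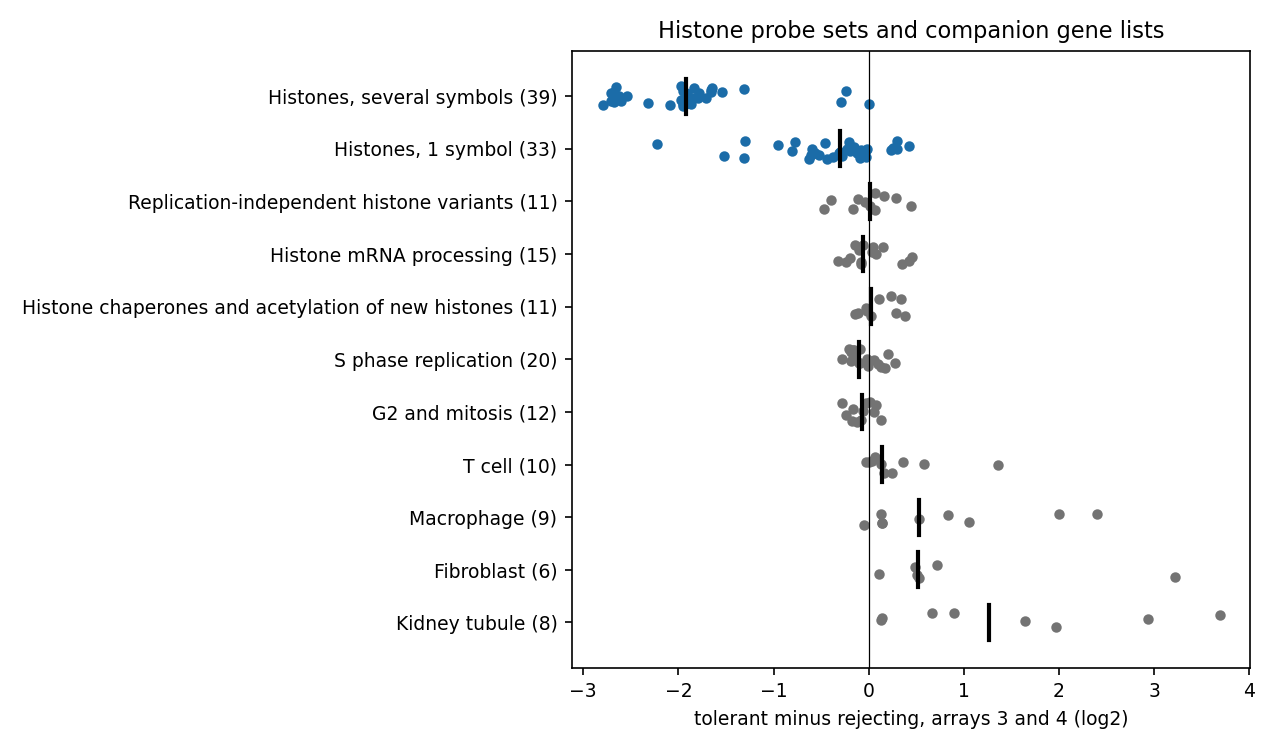
Tolerant minus rejecting difference on arrays 3 and 4 (horizontal axis, log2) of the histone probe sets and of genes in companion and cell type lists, with the number of points in brackets and a black bar at the median. Medians are -1.92 for histones with several symbols and between -0.10 and 0.02 for the histone variant, mRNA processing, chaperone, S phase and G2 lists.

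Markers of other cell types also differed on arrays 3 and 4. Kidney tubule markers had a median of 1.27 over 8 genes, all higher in tolerant samples and 2 of them called in limma. Over all probe sets 52.6% were lower in tolerant samples and 0.0909% were called. With dim probe sets left out, 0 probe sets were called. The summed level of the kidney markers was 20.4 and 16.3 on tolerant arrays 3 and 4, against 6.17 and 6.48 on rejecting arrays 3 and 4. Macrophage markers had a median of 0.52, 8 of 9 higher, and sums of 13.2 and 15.7 in tolerant samples, against 9.87 and 4.67 in rejecting samples. Fibroblast markers had a median of 0.52, 6 of 6 higher, with sums of 15.5 and 14.9 in tolerant samples, against 10.4 and 8.81 in rejecting samples. T cell markers had a median of 0.14, 9 of 10 higher, with sums of 11.6 and 15.2 in tolerant samples, against 9.95 and 11.0 in rejecting samples. Cd3e read 2.75 and 3.82 in tolerant samples, against 1.51 and 2.36 in rejecting samples, and did not pass. B cell, erythroid and endothelial markers had medians of -0.05, 0.11 and 0.02 over 5, 3 and 5 genes, of which 4, 2 and 4 lay above the line on 0 arrays. The endothelial gene Emcn read 1.74 and 1.52 in tolerant samples, against 0.49 and 0.28 in rejecting samples, a difference of 1.25, and the erythroid gene Slc4a1 had a difference of 0.87. Of the kidney list Lrp2 and Kap, of the macrophage list Adgre1, Cd14 and Fcgr3, and of the fibroblast list Lum and Pdgfra, lay above the line on 0 arrays. The lists' sums have no test, and their part in the histone differences was not tested.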

How the data were processed

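The authors deposited log2 values of 35556 probe sets on 8 arrays. The submitters' processing notes name RMA and Affymetrix Expression Console. The method subtracts background, gives arrays processed together a common distribution of probe intensities and summarises probes. The deposited arrays did not share a range. The highest value of a probe set with a symbol was 6.76 to 7.58 on arrays 1 and 2 and 10.1 to 11.2 on arrays 3 and 4. Versions, library files and the base of the logarithm are not stated in the labels or the file. Base 2 was taken from the range of the values. The number of arrays limits precision, and p-values reflect the scatter among these samples alone, part of which may be technical.

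The members and companion lists were chosen with earlier results of these data known. Symbols came from the platform annotation, updated through Entrez identifiers to the RefSeq gene table (GRCm38.p6), whose synonyms gave the older histone names. A moderated linear model (limma 3.58.1, R 4.3.3, empirical Bayes), 2-sided, was fitted to all 23099 probe sets with a symbol, over all 8 arrays and within each set, with Benjamini-Hochberg adjustment and a threshold of 0.05. It was also run on simulated arrays with known differences and independent noise, a check of the fitting and not of the histone results. A companion gene is given by its single-symbol probe set with the highest mean. Plots used Python 3.11.15 and matplotlib 3.10.9.

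Named members were every H1 probe set, in the other classes the 3 brightest single-symbol probe sets, those with the lowest and highest difference on arrays 3 and 4 and the brightest with several symbols, and 3 testis genes. Of companion genes 12 were named whatever their values, with the 2 largest differences of each list.

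Arrays with the same number deviated together from their group means, with correlations of 0.551, 0.561, 0.467 and 0.644, which meets the bound of 0.1 for pairs. Within the sets the correlations were 0.0178 and 0.0266, so the shared deviation followed the sets. The pairing comes from the data and not the labels. Alternatives were other normalizations, filters, probe sets tested and moderation, blocks and arrays left out.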

Additional observations from a re-analysis of the deposited data

How the results depend on the processing

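Every median below kept its sign. The 5 histones called on arrays 3 and 4 became 0 with all probe sets of the table tested and with dim probe sets left out. They also became 0 with only probe sets of exactly 1 symbol tested and with quantile normalization of the 8 arrays or of the 4. The count was 0 too with trend and robust moderation and with 1-symbol histones only. Fits of these 4 arrays with 1 left out have 1 array in a group, and their calls are not counted. With the replicate number as a block there were 25 histones, of 51 probe sets. The difference between the sets called 0 to 5 histones, and 0 to 85 of all probe sets, with an array left out (5 histones of 30 probe sets without tolerant array 4). The block changed no other count of histones called. Over all probe sets 21 were called on arrays 3 and 4, against 11 with 1-symbol probe sets tested, 10 with trend and robust moderation, 5 with the 4 arrays normalized and 0 with all tested or filtered.

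The family median of -1.53 on arrays 3 and 4 was -0.87 after quantile normalization of the 8 arrays and -1.02 of the 4, -0.30 with 1-symbol probe sets and -0.78 with each combination once. Leaving out an array gave -1.74 to -1.24, and -1.52 to -0.31 over all 8 arrays. On arrays 1 and 2 it was -0.039 with 1 symbol. With the 8 arrays normalized, medians were -0.90 for H2A, -1.70 for H3 and -1.05 for several symbols, and steps between sets 0.83 in tolerant and 1.02 in rejecting samples. With the 4 normalized they were -1.02, -2.02 and -1.22. With 1 symbol they were -0.28 for H2A, -0.028 for H2B and -0.20 for H3, and steps 0.19 and 0.78. With dim probe sets left out they were -0.38 for H1, -1.66 for H2B, -1.89 for H4 and -0.54 for 1 symbol. H2A was -1.31 with each combination once. Arrays left out gave -1.89 to -1.35 for H2A, -1.50 to -0.76 for H4, -0.29 to -0.16 for 1 symbol, -2.24 to -1.61 for several and a rejecting step of 2.82 to 3.39. The quantile normalizations of 4 arrays and the combinations were added after seeing the data, and the cause of these shifts was not tested. Low signal on arrays 1 and 2 limits what they can show.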
